A study of Mus musculus with 12 samples.

Results

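The transcription factors that drive red cell and platelet development were followed here in mouse bone marrow progenitors: Gata1, Gata2, Klf1, Gfi1b, Tal1, Lmo2, Nfe2, Zfpm1, Lyl1 and Ldb1. They were chosen by name as the GATA, KLF1, GFI1B and SCL complex genes, with earlier results of these data known. Their contrasts with all genes are therefore a description. They are 10 of the 23377 genes that could be joined across the libraries. All 10 were found under the same symbol in every library and tested in every comparison. RNA was sequenced from 4 groups of C57BL/6 bone marrow cells with 3 libraries each: common myeloid progenitors (CMP) lacking both copies of an enhancer 42 kb from Cebpa, wild-type CMP, LSK cells lacking both copies of that enhancer, and wild-type LSK cells. LSK cells carry Sca-1 and Kit but no markers of mature lineages, and the blood stem cells are found among them, and CMP are their progeny from which both the granulocyte-monocyte and the erythroid-megakaryocyte branches come. Cebpa encodes C/EBPα, the factor that commits progenitors to granulocytes and monocytes, and the study asked what changes in both fractions when its enhancer is missing. The labels give no age, treatment, sorting gate for CMP or statement of how the deletion was made, and they do not say that the libraries of a group came from separate animals, so p-values measure the spread between these libraries.

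GATA factors bind DNA with a zinc finger and are assembled into a larger complex in which TAL1 (also called SCL) or its close relative LYL1 binds next to them, LMO2 bridges the DNA-bound proteins and LDB1 joins such complexes to each other. GATA2 is characteristic of stem and early progenitor cells and of mast cells, and in the erythroid branch GATA1 takes its place at many of the same sites with the cofactor FOG1 (encoded by Zfpm1), a step known as the GATA switch. KLF1 activates red cell genes, GFI1B is a repressor needed for red cells and platelets, and NF-E2, whose tissue-restricted subunit is encoded by Nfe2, is needed for platelet release.

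Levels are CPM, read counts scaled to a common library total, and adjusted between libraries by TMM, a method that matches the libraries on the bulk of their genes. Values are listed for enhancer-null replicates 1, 2 and 7 and wild-type replicates 1, 6 and 8, in that order, and error terms are SD with n = 3. Gene counts summed to 8976999 to 20122669 in enhancer-null CMP, 15470260 to 32770938 in wild-type CMP, from 6170491 up to 49149674 in enhancer-null LSK, and between 14753266 and 34080293 in wild-type LSK. Cebpa checked the labels: it had 0, 3 and 0 counts in enhancer-null CMP against 544, 270 and 463 in wild-type CMP, and 1, 0 and 15 counts in enhancer-null LSK against 226, 118 and 39 in wild-type LSK. By Xist and Y-linked genes, replicates 1 and 2 of the enhancer-null and replicate 1 of the wild-type cells were male in both fractions and the rest female, so sex was not balanced between the genotypes. Dropout was uneven. Among the 9181 genes averaging 10 CPM or more, the share without a count was 3.56% in enhancer-null CMP replicate 1, 1.55% in enhancer-null CMP replicate 7 and 1.83% in wild-type LSK replicate 6, against at most 0.882% in the other libraries. Of the genes commonly used for sorting gates, Ly6a, which encodes Sca-1, set the fractions apart. It lay between 0.186 and 12.9 CPM in the 6 CMP libraries and between 134 and 196 CPM in the 6 LSK libraries. Fcgr3, another such gene, differed with genotype in CMP. It lay between 18.7 and 21.8 CPM in enhancer-null CMP and between 0.264 and 8.38 CPM in wild-type CMP.

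The members are spread over 7 chromosomes of the mm10 build, all as protein-coding genes of the GENCODE annotation. Gata1 lies on chromosome X from 7959260 to 7978071 on the minus strand, Gata2 on chromosome 6 from 88193891 to 88207032 on the plus strand, and Nfe2 on chromosome 15 from 103248212 to 103258403 on the minus strand. Klf1 (84901928 to 84905291), Lyl1 (84701457 to 84704715) and Zfpm1 (122282141 to 122337251) are all on the plus strand of chromosome 8, with Lyl1 and Klf1 close neighbours. Gfi1b (28609450 to 28621982, minus strand) and Lmo2 (103957986 to 103981878, plus strand) are on chromosome 2. Tal1 is on chromosome 4 (115056426 to 115071755, plus strand) and Ldb1 on chromosome 19 (46031570 to 46045214, minus strand). Exons of Lyl1 overlap Nfix, and exons of Ldb1 overlap Pprc1, on the opposite strand. The strand setting of the counting is not given in the sources used here, so reads of these overlapping pairs may not be separable.

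Promoter windows are printed for Klf1, Gata1, Gfi1b and Gata2, the members with the largest absolute fold changes between wild-type CMP and wild-type LSK. Each window runs from 250 bases before a RefSeq transcript start to 50 bases after it (assembly GRCm38.p6, 5′ to 3′ on the gene's strand), and the RefSeq table held windows for 8 of the 10 members. Capitals mark the GATA box GATAA or its reverse complement TTATC, and the E box CANNTG, which reads the same on both strands and is the letter pattern that TAL1 and its E protein partners bind.
Klf1, chr8:84901732-84902031, plus strand: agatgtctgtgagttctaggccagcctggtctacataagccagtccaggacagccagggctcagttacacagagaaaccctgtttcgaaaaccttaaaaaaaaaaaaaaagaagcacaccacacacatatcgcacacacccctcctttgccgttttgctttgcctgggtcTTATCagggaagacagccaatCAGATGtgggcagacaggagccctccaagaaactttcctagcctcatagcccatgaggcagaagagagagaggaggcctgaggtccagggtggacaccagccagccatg
Gata1, chrX:7967861-7968160, minus strand: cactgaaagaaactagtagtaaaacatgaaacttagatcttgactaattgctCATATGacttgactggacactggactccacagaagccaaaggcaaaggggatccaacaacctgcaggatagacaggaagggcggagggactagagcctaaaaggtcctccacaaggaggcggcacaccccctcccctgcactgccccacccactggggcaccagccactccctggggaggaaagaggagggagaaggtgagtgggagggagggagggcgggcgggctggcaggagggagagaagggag
Gfi1b, chr2:28621933-28622232, minus strand: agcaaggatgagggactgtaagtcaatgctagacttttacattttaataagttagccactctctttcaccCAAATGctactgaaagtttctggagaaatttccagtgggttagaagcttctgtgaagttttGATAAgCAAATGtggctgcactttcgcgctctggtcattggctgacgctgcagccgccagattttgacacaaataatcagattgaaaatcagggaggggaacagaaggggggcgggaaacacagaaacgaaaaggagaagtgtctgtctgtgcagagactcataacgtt
Gata2, first start, chr6:88193641-88193940, plus strand: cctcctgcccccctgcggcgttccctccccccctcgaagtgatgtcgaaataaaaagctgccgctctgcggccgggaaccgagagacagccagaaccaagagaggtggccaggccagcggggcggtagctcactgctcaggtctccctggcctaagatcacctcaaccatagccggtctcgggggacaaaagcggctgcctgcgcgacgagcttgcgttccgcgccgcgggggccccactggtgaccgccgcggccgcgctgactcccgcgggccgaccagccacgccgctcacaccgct
Gata2, second start, chr6:88198414-88198713, plus strand: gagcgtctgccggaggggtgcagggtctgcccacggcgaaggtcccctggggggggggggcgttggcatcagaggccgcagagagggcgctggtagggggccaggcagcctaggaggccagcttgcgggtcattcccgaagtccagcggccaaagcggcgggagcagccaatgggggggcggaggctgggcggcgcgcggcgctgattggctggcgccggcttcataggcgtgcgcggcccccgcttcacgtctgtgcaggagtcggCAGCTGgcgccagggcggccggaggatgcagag

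Counting the first base of the transcript as 1 and the base before it as -1, the Klf1 window held a GATA box whose first base lay at -80 and an E box at -59. The Gfi1b window held a GATA box at -119 and E boxes at -180 and -113, so that one E box stood 1 base after the GATA box. The Gata1 window held 1 E box at -198 and no GATA box. The second Gata2 window held 1 E box at 18, and the first held neither pattern. None of these 5 windows held the C/EBP pattern TTGCNNAA or its reverse complement TTNNGCAA. Over the 32841 windows of the table, 25.4% held a GATA box, 72.3% an E box and 10.8% the C/EBP pattern. A match of letters is a description of the window and not a binding site.

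The first comparison asked how enhancer-null CMP differed from wild-type CMP. Nfe2, Gata2 and Gfi1b were higher in every enhancer-null CMP library than in any wild-type one, Lmo2 was lower in every one, and Gata1 and Klf1 overlapped between the genotypes. Only Nfe2 passed the threshold of an adjusted p of 0.05, which 0.58% of the 11719 genes tested in this comparison did (0.469% higher and 0.111% lower). At an unadjusted p under 0.05 were 4 members and 12.6% of all genes, and DESeq2 called 5 members and 7.21% of its genes. Without overlap between the groups were 6 members, 5 higher (Gata2, Gfi1b, Tal1, Nfe2 and Zfpm1) and 1 lower (Lmo2), where 23.6% of all genes tested had no overlap (11.1% higher and 12.5% lower). The median log2 fold change over the 10 members was 0.78, against -0.0218 over all genes, and the median of its size was 0.90, against 0.53.

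**Figure D1:**
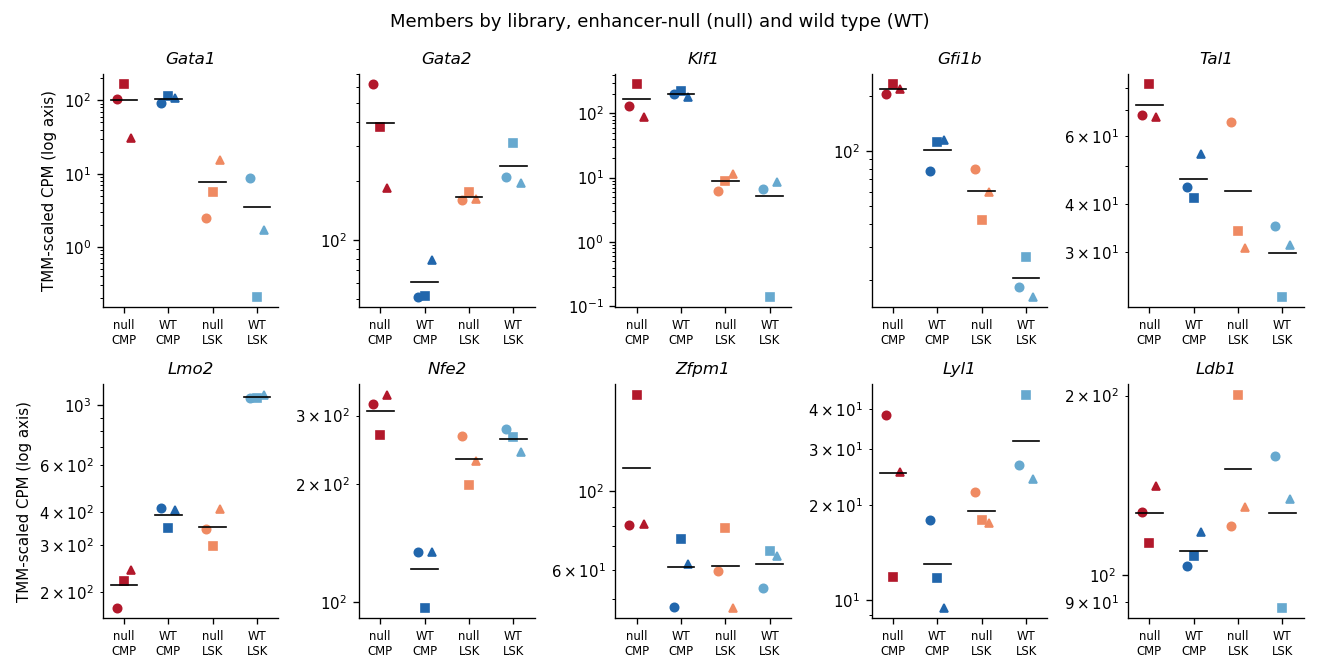
Level of each member in each of the 12 libraries, in TMM-scaled CPM on a log axis, with 1 panel per gene. Points are libraries (circles, squares and triangles in the order of the replicate numbers) and bars are group means; Gata2 and Nfe2 are lowest in wild-type CMP, Lmo2 is highest in wild-type LSK, and Gata1 and Klf1 are high in CMP of both genotypes.

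Nfe2 had 320.4, 267 and 339 CPM in enhancer-null CMP, against 134, 96.7 and 134 CPM in wild-type CMP. Every enhancer-null library lay well above every wild-type library, and the libraries of each genotype lay close together. The fold change was 1.34 on the log2 scale (SE 0.20, adjusted p = 0.0459, quasi-likelihood test of edgeR, adjusted over all genes by Benjamini-Hochberg), a 2.53-fold rise. The call rests on all 6 libraries: without any one of them the log2 fold change stayed between 1.20 and 1.43, and the adjusted p lay between 0.056 and 0.214. Over its 12 alternatives in all, the adjusted p ran from 1.56e-06 to 0.214, with 5 of them past the threshold.

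Gata2 had 620.1, 374 and 185 CPM in enhancer-null CMP, against 51.3, 51.8 and 79.1 CPM in wild-type CMP. The enhancer-null libraries differed widely among themselves, with replicate 1 highest and replicate 7 lowest, and even replicate 7 stood above the highest wild-type library. The log2 fold change was 2.69 (SE 0.44), the largest of the 10 members, and its adjusted p of 0.0538 in edgeR's test just missed the threshold. Leaving out enhancer-null replicate 1 (2.18, adjusted p = 0.0491) or replicate 7 (3.03, adjusted p = 0.0194) brought it past the threshold, and over the 12 alternatives the adjusted p ran from 6.7e-06 to 0.253, with 5 past it.

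Gfi1b, the repressor, had 203, 230.5 and 217 CPM in enhancer-null CMP, against 77.8, 112 and 115 CPM in wild-type CMP. The enhancer-null libraries were tightly grouped and lay well above the wild-type ones. The log2 fold change was 1.09 (SE 0.22, adjusted p = 0.0887), not past the threshold.

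Lmo2, the bridging protein of the complex, ran the other way, with 176, 219.8 and 242 CPM in enhancer-null CMP, against 415, 348 and 405 CPM in wild-type CMP. All enhancer-null libraries were below all wild-type ones. The log2 fold change of -0.87 (SE 0.18) had an adjusted p of 0.0927. Its partner Tal1, the DNA-binding subunit, had 68.1, 81.8 and 67.2 CPM in enhancer-null CMP, against 44.2, 41.3 and 53.9 CPM in wild-type CMP, again without overlap but in the opposite direction (log2 fold change 0.64, SE 0.28, adjusted p = 0.409).

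Gata1 had 106, 166 and 30.8 CPM in enhancer-null CMP, against 92.8, 115 and 108 CPM in wild-type CMP. Enhancer-null replicate 2 was above all wild-type libraries and replicate 7 far below them, so the genotypes overlapped. Klf1 repeated this order, with 129, 283 and 87.1 CPM in enhancer-null CMP, against 198, 220.0 and 181 CPM in wild-type CMP. The log2 fold changes were -0.06 (SE 0.53, adjusted p = 0.982) for Gata1 and -0.27 (SE 0.41, adjusted p = 0.872) for Klf1. Both estimates were positive without enhancer-null replicate 7 (0.37 for Gata1 and 0.04 for Klf1), and that of Gata1 was 0.01 without wild-type replicate 6.

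The summed level of 7 erythroid marker genes followed the same libraries. It was 971, 1862 and 500.3 CPM in enhancer-null CMP, against 1241, 1357 and 1222 CPM in wild-type CMP, highest in enhancer-null replicate 2 and lowest in enhancer-null replicate 7. Car1, a carbonic anhydrase of red cell precursors, made up most of this sum, and the globin gene Hba-a1 had no count in any library. In bulk RNA, fewer cells of a type and less RNA per cell cannot be told apart.

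Zfpm1, which encodes the GATA1 cofactor FOG1, had 80.4, 186 and 80.9 CPM in enhancer-null CMP, against 47.4, 73.3 and 62.6 CPM in wild-type CMP, without overlap and with enhancer-null replicate 2 far above the other libraries (log2 fold change 0.92, SE 0.40, adjusted p = 0.402). Lyl1, the relative of Tal1, had 38.3, 11.9 and 25.4 CPM in enhancer-null CMP and 17.9, 11.8 and 9.49 CPM in wild-type CMP (0.94, SE 0.68, adjusted p = 0.678). Ldb1, the factor that joins complexes, had 127, 113 and 141 CPM in enhancer-null CMP and 104, 107 and 118 CPM in wild-type CMP (0.21, SE 0.20, adjusted p = 0.782). Both overlapped between the genotypes.

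Markers of other lineages moved with genotype in CMP as well, and their part in the values of Gata2 and Nfe2 was not tested. The summed level of 23 mast cell, basophil and eosinophil markers was 2866 to 3342 CPM in enhancer-null CMP, against 902 to 1228 CPM in wild-type CMP. Of these, 15 were tested, with 8 positive and 7 negative log2 fold changes, and 2 passed the threshold, both higher: Cpa3, a mast cell protease, and Gzmb, a granzyme. Cpa3, Srgn, Kit and Gzmb made up most of the sum in enhancer-null CMP, while Hdc, the histamine-forming enzyme, averaged 1.08 CPM in enhancer-null CMP and 17.7 CPM in wild-type CMP, and the basophil protease Mcpt8 averaged 6.65 CPM in enhancer-null CMP and 18.5 CPM in wild-type CMP. Prss34, Cma1, Tpsb2, Tpsab1 and Ccr3 had no count in any enhancer-null CMP library. The sum of 6 neutrophil markers was 2406 to 3270 CPM in enhancer-null CMP, against 4230 to 6448 CPM in wild-type CMP. Each of these markers had a lower mean in enhancer-null CMP. The sum of 4 monocyte markers was 7.33 to 38.4 CPM in enhancer-null CMP, against 784 to 896 CPM in wild-type CMP, and the sum of 6 megakaryocyte markers was 112 to 236.5 CPM in enhancer-null CMP, against 65.3 to 100 CPM in wild-type CMP. Itga2b was the largest part of the megakaryocyte sum in enhancer-null CMP, with a mean of 151 CPM in enhancer-null CMP and 25.9 CPM in wild-type CMP, while Pf4 (9.42 CPM in enhancer-null CMP and 39.9 CPM in wild-type CMP) and Vwf (3.87 CPM in enhancer-null CMP and 13.1 CPM in wild-type CMP), both platelet genes, had lower means. The sum of 4 T cell markers was 216 to 241 CPM in enhancer-null CMP, against 27 to 33.5 CPM in wild-type CMP. Among them Cd3e had no count in the enhancer-null libraries, and Tcf7 and Lat made up nearly all of the sum.

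In LSK cells the same genotype comparison gave a different order. Lmo2 fell, Gfi1b was higher in every enhancer-null library, and Nfe2, which rose in CMP, overlapped between the genotypes. Lmo2 was the only member past the threshold, which 0.103% of 11617 genes passed (0.0775% higher and 0.0258% lower). At an unadjusted p under 0.05 were 3 members and 7.9% of all genes, and DESeq2 called 2 members and 3.08% of its genes. Without overlap were 1 member on the higher side (Gfi1b) and 3 on the lower side (Gata2, Lmo2 and Lyl1), where 19.1% of all genes had no overlap (8.5% higher and 10.6% lower). The median log2 fold change of the members was 0.15, against -0.00984 over all genes.

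Lmo2 had 346, 297 and 408 CPM in enhancer-null LSK, against 1069, 1067 and 1093 CPM in wild-type LSK. The wild-type libraries were almost identical, and the highest enhancer-null library was far below them. The log2 fold change was -1.59 (SE 0.13, adjusted p = 0.0128, edgeR), a 3-fold fall. The call held without enhancer-null replicate 7 or wild-type replicate 6, and was lost without enhancer-null replicate 1 (adjusted p = 0.144), enhancer-null replicate 2 (0.0958), wild-type replicate 1 (0.0739) or wild-type replicate 8 (0.118), with log2 fold changes from -1.73 to -1.48 throughout. Over the 12 alternatives the adjusted p ran from 6.06e-25 to 0.144. The summed level of 6 stem cell markers moved with it, at 315 to 511 CPM in enhancer-null LSK, against 1168 to 1394 CPM in wild-type LSK, and its part in the value of Lmo2 was not tested. Other sums also set the genotypes apart in LSK, and their part in the members' values was not tested either. The megakaryocyte sum was 129.8 to 147 CPM in enhancer-null LSK, against 54.6 to 65.1 CPM in wild-type LSK, with Itga2b as its largest part. Itga2b and Gp9 had higher means in enhancer-null LSK, while Pf4, Vwf, Ppbp and Gp1ba had lower ones. Pf4 averaged 3.61 CPM in enhancer-null LSK and 9.18 CPM in wild-type LSK. The T cell sum was 172 to 315 CPM in enhancer-null LSK, against 65.3 to 98.6 CPM in wild-type LSK. Within it Tcf7 averaged 169 CPM in enhancer-null LSK and 0.178 CPM in wild-type LSK. Lat averaged 85.3 CPM in enhancer-null LSK and 76.4 CPM in wild-type LSK, and Cd3e and Cd3g at most 0.237 CPM in either. The mast cell, basophil and eosinophil sum was 1873 to 2472 CPM in enhancer-null LSK, against 1550 to 1616 CPM in wild-type LSK.

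Gfi1b had 79.3, 42.1 and 60.1 CPM in enhancer-null LSK, against 18.3, 26.4 and 16.1 CPM in wild-type LSK. All enhancer-null libraries exceeded all wild-type ones, as in CMP. The log2 fold change was 1.61 (SE 0.39) with an adjusted p of 0.302.

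Gata2 had 159.5, 174 and 162 CPM in enhancer-null LSK, against 209.5, 311 and 196 CPM in wild-type LSK. The enhancer-null libraries lay within a narrow band just under the wild-type ones, the reverse of their order in CMP (log2 fold change -0.50, SE 0.21, adjusted p = 0.626). Nfe2 had 266, 199 and 229.8 CPM in enhancer-null LSK and 278, 265 and 241 CPM in wild-type LSK, with overlap (-0.14, SE 0.17, adjusted p = 0.87).

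Gata1 and Klf1 were near the bottom of the members in LSK. Gata1 had 2.51, 5.6 and 15.2 CPM in enhancer-null LSK and 8.7, 0.21 and 1.69 CPM in wild-type LSK, and Klf1 had 6.16, 8.96 and 11.2 CPM in enhancer-null LSK and 6.57, 0.14 and 8.59 CPM in wild-type LSK. Wild-type replicate 6 held only 3 counts of Gata1 and 2 of Klf1, and its sum of erythroid markers was 4.35 CPM, against 61 to 103 CPM in the other wild-type LSK libraries. Neither gene passed the threshold (log2 fold change 1.15, SE 1.52, adjusted p = 0.886 for Gata1, and 0.81, SE 1.38, adjusted p = 0.915 for Klf1). The estimate for Gata1 ran from 0.19 without enhancer-null replicate 7 to 3.04 without wild-type replicate 1, and that for Klf1 from 0.22 without wild-type replicate 6 to 1.38 without wild-type replicate 8.

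Lyl1 had 22, 17.9 and 17.5 CPM in enhancer-null LSK, against 26.7, 44.4 and 24.2 CPM in wild-type LSK, without overlap (-0.69, SE 0.46, adjusted p = 0.757). Tal1 had 65.1, 33.9 and 30.8 CPM in enhancer-null LSK and 35.1, 22.9 and 31.2 CPM in wild-type LSK, and its estimate of 0.57 (SE 0.43, adjusted p = 0.785) rested in part on enhancer-null replicate 1, without which it was 0.15. Zfpm1 (0.02, SE 0.30, adjusted p = 0.991) and Ldb1 (0.27, SE 0.30, adjusted p = 0.863) overlapped between the genotypes. Zfpm1 had 59.8, 78.6 and 47.2 CPM in enhancer-null LSK and 53.7, 67.9 and 65.7 CPM in wild-type LSK, and Ldb1 had 121, 200.4 and 130.0 CPM in enhancer-null LSK and 159, 88.1 and 134 CPM in wild-type LSK.

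**Figure D2:**
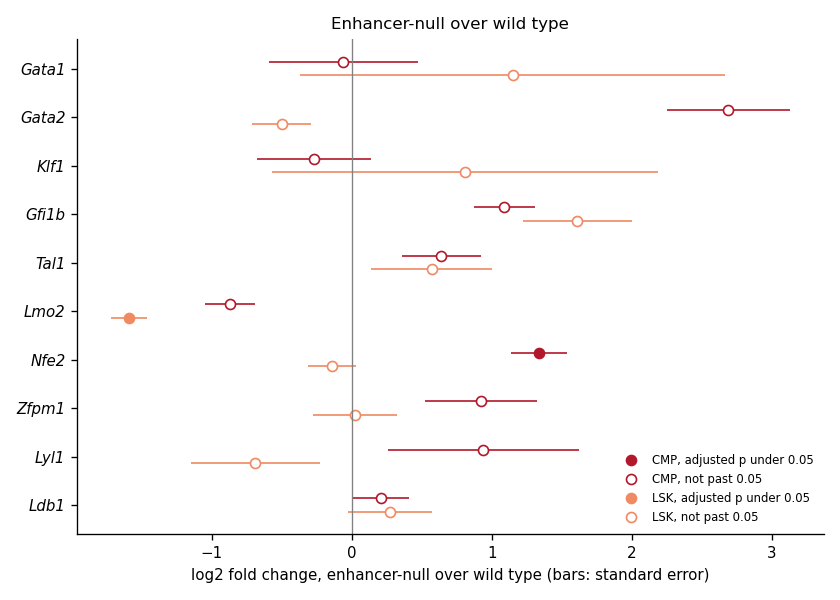
Log2 fold change of each member, enhancer-null over wild type, in CMP (dark red) and LSK (orange), with bars for 1 standard error. Filled points are past an adjusted p of 0.05, which holds for Nfe2 in CMP and Lmo2 in LSK; Gata2 lies at 2.69 in CMP and -0.50 in LSK.

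Whether the effect of genotype differed between the fractions was tested in 1 fit over the 12 libraries. In that fit, which took the libraries as independent, it did for Gata2 and Nfe2. The fold change of Gata2 was 3.22 higher in CMP than in LSK on the log2 scale (SE 0.51, adjusted p = 0.02, edgeR). For Nfe2 the difference was 1.52 (SE 0.26, adjusted p = 0.0317). These were 2 of 10 members, both with a positive difference, where 0.292% of 12683 genes passed (0.221% with a positive one). For Lmo2 the difference of 0.75 (SE 0.22) had an adjusted p of 0.319, so its fall was not shown to differ between the fractions. The other 7 members had differences from -1.18 for Gata1 to 1.67 for Lyl1, none past the threshold.

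The difference for Gata2 stayed between 2.65 and 3.56 in all 12 fits that left out a library. It lost its call without wild-type CMP replicate 1 (adjusted p = 0.0678) or 6 (0.084) and without enhancer-null LSK replicate 1 (0.0728), 2 (0.0717) or 7 (0.0654). The difference for Nfe2 stayed between 1.37 and 1.63 and held its call only without enhancer-null CMP replicate 2 (adjusted p = 0.0208), with adjusted p from 0.0562 to 0.108 in the other 11 fits. Over the 18 alternatives of each, the adjusted p ran from 1.08e-05 to 0.108 for Gata2 and from 6.24e-06 to 0.108 for Nfe2. With sex as a covariate Gata2 kept its call and Nfe2 lost it. With a block for each shared replicate number, which the labels do not tie to an animal, neither gene passed the threshold.

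The balance between the paralogs GATA1 and GATA2 was read within each library as the share of Gata1 in the reads of both genes, which needs no scaling between libraries but is not corrected for transcript length. It was 14.5%, 30.7% and 14.3% in enhancer-null CMP (19.8 ± 9.39%), against 64.4%, 69% and 57.6% in wild-type CMP (63.7 ± 5.71%). The genotypes were far apart. The 95% Wilson intervals cover counting error only and take reads as independent. They were 13.2% to 15.5% in enhancer-null replicate 7 and 55.8% to 59.4% in wild-type replicate 8, the widest of each genotype. With 3 libraries against 3, an exact two-sided permutation test cannot go below 0.1, so no p is given. Gata1 itself averaged 101 ± 67.6 CPM in enhancer-null CMP and 105 ± 11.3 CPM in wild-type CMP, and Gata2 averaged 393 ± 218 CPM in enhancer-null CMP and 60.8 ± 15.9 CPM in wild-type CMP.

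In LSK the share of Gata1 was 1.55%, 3.11% and 8.54% in enhancer-null cells (4.4 ± 3.67%), against 3.99%, 0.0676% and 0.857% in wild-type cells (1.64 ± 2.07%), with overlap. The share of Tal1 in the reads of Tal1 and Lyl1 was 74.6 ± 11.8% in enhancer-null CMP and 78 ± 6.92% in wild-type CMP, which overlapped. It was 74.7%, 65.4% and 63.7% in enhancer-null LSK, against 56.7%, 34.1% and 56.3% in wild-type LSK, where every enhancer-null library was higher.

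**Figure D3:**
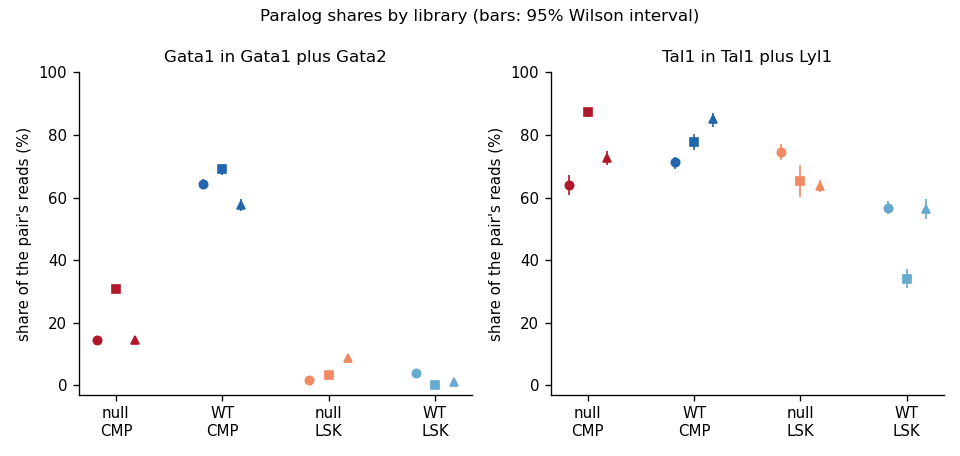
Share of Gata1 in the reads of Gata1 and Gata2 (left) and of Tal1 in the reads of Tal1 and Lyl1 (right), in percent, for each library of the 4 groups, with 95% Wilson intervals. In CMP the Gata1 share lies between 14.3% and 30.7% in the enhancer-null libraries and between 57.6% and 69% in the wild-type ones.

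Levels were compared between members per kilobase of merged exon length. In enhancer-null CMP the order began with Gfi1b (118 ± 7.58 CPM per kb), Klf1 (109 ± 67.4), Nfe2 (103 ± 12.4) and Lmo2 (98.1 ± 15.7), which did not differ beyond their spread. The mean of Gata2 (72.8 ± 40.5) was above that of Gata1 (41.3 ± 27.7), but their spreads overlapped. Within each library Gata2 was the higher, though nearly equal in replicate 2 (69.3 against 67.9 CPM per kb). In wild-type CMP Lmo2 (180 ± 16.7 CPM per kb) and Klf1 (131 ± 12.7) led, and Gata1 (43.1 ± 4.63) stood above Gata2 (11.3 ± 2.95). In LSK of both genotypes Lmo2 was first and Nfe2 second, with Lmo2 at 162 ± 25.7 CPM per kb and Nfe2 at 77.5 ± 11.3 CPM per kb in enhancer-null LSK, and Lmo2 at 497 ± 6.87 CPM per kb and Nfe2 at 87.4 ± 6.14 CPM per kb in wild-type LSK. Klf1 and then Gata1 closed the order there, with Klf1 at 5.73 ± 1.64 CPM per kb and Gata1 at 3.18 ± 2.7 CPM per kb in enhancer-null LSK, and Klf1 at 3.33 ± 2.88 CPM per kb and Gata1 at 1.45 ± 1.86 CPM per kb in wild-type LSK.

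Across the 4 groups the members fell into a few orders. Gata1 and Klf1 were highest in CMP of both genotypes, which overlapped, and far lower in LSK of both genotypes, which overlapped too. Gata2 was highest in enhancer-null CMP, overlapping wild-type LSK, then enhancer-null LSK, and lowest in wild-type CMP. Nfe2 had the same order, with enhancer-null CMP, wild-type LSK and enhancer-null LSK each overlapping its neighbour and wild-type CMP apart below them. Gfi1b ran from enhancer-null CMP through wild-type CMP and enhancer-null LSK, which overlapped, to wild-type LSK. Lmo2 was highest in wild-type LSK and lowest in enhancer-null CMP, with wild-type CMP and enhancer-null LSK overlapping between them. Tal1 and Zfpm1 were highest in enhancer-null CMP, apart from the other 3 groups. Among those, neighbours in the order of means overlapped, as they did for Lyl1 and Ldb1 throughout, though wild-type CMP lay above wild-type LSK for Tal1 without overlap.

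The step between the fractions was compared next, as CMP over LSK within each genotype. In enhancer-null cells 7 members were higher in every CMP library than in any LSK library (Gata1, Gata2, Klf1, Gfi1b, Tal1, Nfe2 and Zfpm1) and 1 was lower (Lmo2), where 16.9% of 11263 genes had no overlap (8.37% higher and 8.48% lower). None of the 10 members passed an adjusted p of 0.05 in edgeR's test, and nor did any other gene (0%). At an unadjusted p of 0.05, 5 members and 6.92% of all genes passed, and DESeq2 called 4 members (Gata1, Gfi1b, Klf1 and Lmo2) among 364 genes (3.03%). The largest log2 fold changes were those of Klf1 (4.23, SE 0.54, adjusted p = 0.186), Gata1 (3.67, SE 0.87, adjusted p = 0.375) and Gfi1b (1.81, SE 0.28, adjusted p = 0.186). Gata2 was 1.22 (SE 0.39, adjusted p = 0.573), Nfe2 0.39 (SE 0.18, adjusted p = 0.766) and Lmo2 -0.75 (SE 0.20, adjusted p = 0.445).

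In wild-type cells Klf1 and Gfi1b rose, and Gata2, Lmo2 and Nfe2 fell. These 5 members passed the threshold, where 4.22% of 12026 genes did (2.15% higher and 2.06% lower), and 8 of 10 had no overlap (4 higher, Gata1, Klf1, Gfi1b and Tal1, and 4 lower, Gata2, Lmo2, Nfe2 and Lyl1), where 33.3% of genes had none (16.3% higher and 17% lower). The median size of the log2 fold change was 1.33 over the members, against 0.61 over all genes. Klf1 averaged 199.8 ± 19.5 CPM in wild-type CMP and 5.1 ± 4.41 CPM in wild-type LSK (log2 fold change 5.32, SE 1.0, adjusted p = 0.032). Gfi1b averaged 102 ± 20.7 CPM in wild-type CMP and 20.3 ± 5.44 CPM in wild-type LSK (2.36, SE 0.32, adjusted p = 0.0129).

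Gata1 averaged 105 ± 11.3 CPM in wild-type CMP and 3.54 ± 4.54 CPM in wild-type LSK. All CMP libraries were far above all LSK libraries, and the adjusted p of its log2 fold change of 4.90 (SE 1.08) was 0.0508, just short of the threshold. Without wild-type LSK replicate 6 it was 4.35 (adjusted p = 0.0106), and without wild-type LSK replicate 1 it was 6.79 (adjusted p = 0.0271).

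Gata2 averaged 60.8 ± 15.9 CPM in wild-type CMP and 239 ± 63.1 CPM in wild-type LSK (log2 fold change -1.94, SE 0.28, adjusted p = 0.0164). Lmo2 averaged 389 ± 36.3 CPM in wild-type CMP and 1076 ± 14.9 CPM in wild-type LSK (-1.43, SE 0.12, adjusted p = 0.00267), and this was the only member call of the comparison that held in all 13 alternatives. Nfe2 averaged 122 ± 21.7 CPM in wild-type CMP and 261 ± 18.4 CPM in wild-type LSK (-1.06, SE 0.19, adjusted p = 0.0282). Klf1 and Nfe2 each kept their call in 1 of 6 fits that left out a library, the one without wild-type LSK replicate 6 (adjusted p = 0.000152 for Klf1 and 0.0252 for Nfe2). In the other 5 fits the adjusted p reached 0.115 for Klf1 and 0.0999 for Nfe2. Gata2 lost its call without wild-type CMP replicate 1, 6 or 8 (adjusted p = 0.0651, 0.079 and 0.0563), and Gfi1b without wild-type CMP replicate 6 (0.0845) or 8 (0.0688) or wild-type LSK replicate 1 (0.0516). With a block for each replicate number, only Gfi1b and Lmo2 kept their calls.

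Lyl1 averaged 13.1 ± 4.34 CPM in wild-type CMP and 31.8 ± 11 CPM in wild-type LSK (-1.24, SE 0.51, adjusted p = 0.226), and Tal1 averaged 46.5 ± 6.56 CPM in wild-type CMP and 29.7 ± 6.2 CPM in wild-type LSK (0.69, SE 0.33, adjusted p = 0.295). Zfpm1 (0.01, SE 0.27, adjusted p = 0.993) and Ldb1 (-0.17, SE 0.25, adjusted p = 0.761) overlapped between the fractions. The test of a different step in the 2 genotypes is the same contrast as the test of a different genotype effect in the 2 fractions. Gata2 and Nfe2 passed it without a replicate block and not with one.

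**Figure D4:**
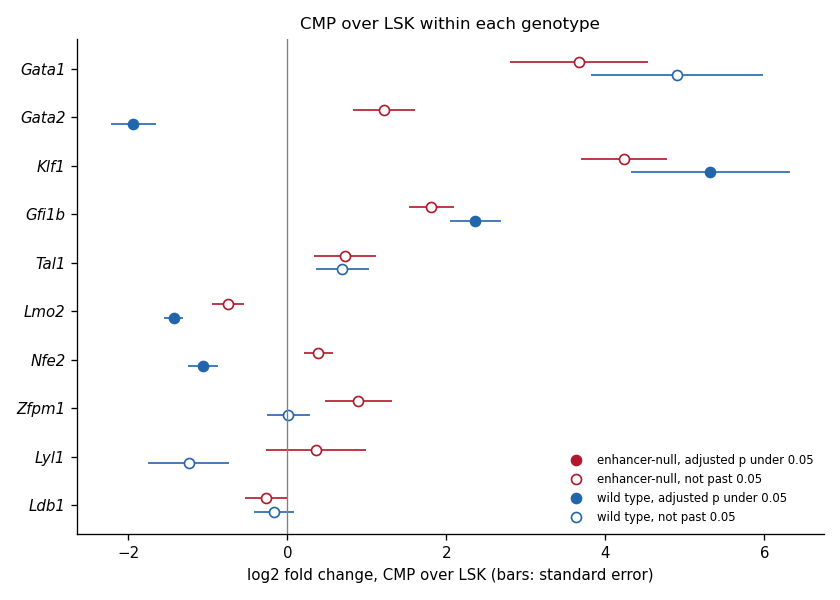
Log2 fold change of each member, CMP over LSK, in enhancer-null cells (red) and wild-type cells (blue), with bars for 1 standard error and filled points past an adjusted p of 0.05. Gata2 lies at 1.22 in enhancer-null cells and -1.94 in wild-type cells, and Klf1 at 4.23 in enhancer-null cells and 5.32 in wild-type cells.

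Partners and targets of the members were described from 6 lists. Of all genes, 12.6% in CMP and 7.9% in LSK had an unadjusted p under 0.05 between the genotypes. DESeq2 called 7.21% of its genes in CMP and 3.08% in LSK. In CMP, 25 of 29 tested SCL and GATA cofactors had a positive log2 fold change, enhancer-null over wild type. The median of the 29 was 0.44, against -0.0218 over all genes. At an unadjusted p under 0.05 were 11 higher and 1 lower, and DESeq2 called 6 higher and 1 lower. In edgeR's test 1 passed the threshold, Cbfa2t3, which encodes ETO2, a corepressor of the complex. It had 631, 423 and 477 CPM in enhancer-null CMP, against 107, 133 and 173 CPM in wild-type CMP, so that every enhancer-null library was above every wild-type one (log2 fold change 1.89, SE 0.24, adjusted p = 0.0239). Its call was lost without enhancer-null replicate 7 (adjusted p = 0.0512) and without wild-type replicate 1 (0.0896), 6 (0.144) or 8 (0.0923). In LSK none of 29 cofactors passed in edgeR's test (median 0.14, 6 with an unadjusted p under 0.05, and 1 in DESeq2), and Cbfa2t3 averaged 484 ± 149 CPM in enhancer-null LSK and 297 ± 22.2 CPM in wild-type LSK. Between wild-type fractions it fell, with 137.5 ± 33.2 CPM in wild-type CMP against the 297 ± 22.2 CPM of wild-type LSK (-1.07, SE 0.20, adjusted p = 0.0331), a call that held without wild-type LSK replicate 6 (0.0271) and was lost without any other library (0.0638 to 0.139). Its levels in enhancer-null CMP and LSK overlapped.

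None of 8 tested NF-E2 partners, the small MAF proteins, BACH factors and relatives of NF-E2, passed in either fraction in edgeR's test (medians 0.44 in CMP and -0.34 in LSK). The count was also 0 at an unadjusted p of 0.05 and in DESeq2.

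Erythroid targets were set against the same comparisons. In CMP the log2 fold change was above 0 for 5 of the 40 tested and below 0 for 35, with a median of -0.24 against -0.0218 over all genes, and none passed the threshold in edgeR's test or in DESeq2 (3 had an unadjusted p under 0.05, all lower). In LSK 12 of 32 were positive and 20 negative, and none passed in edgeR's test (1 with an unadjusted p under 0.05, and 1 in DESeq2). In the step between wild-type fractions many passed. In wild-type cells 38 of 40 were higher in CMP, with a median log2 fold change over the 40 of 2.30, against -0.00575 over all genes. The threshold was passed by 19 of the 40, all higher, where 2.15% of all genes passed on the higher side. The number past the threshold lay between 3 (without wild-type CMP replicate 8) and 24 (without wild-type LSK replicate 6) when 1 library was left out. Epor, the erythropoietin receptor, averaged 77.6 ± 11.7 CPM in wild-type CMP and 0.995 ± 1.33 CPM in wild-type LSK (log2 fold change 6.24, SE 1.04, adjusted p = 0.0223). Ermap (7.49, SE 0.80, adjusted p = 0.00654), Kel (6.40, SE 0.82, adjusted p = 0.0117) and Add2 (6.11, SE 1.03, adjusted p = 0.0235), which encode blood group and membrane skeleton proteins of the red cell, were among them. The call of Ermap held in all 6 fits that left out a library. Those of Epor, Kel and Add2 were lost without any one wild-type CMP library (adjusted p from 0.0563 to 0.0957), and that of Epor also without wild-type LSK replicate 8 (0.0568). In enhancer-null cells 35 of 37 tested targets were higher in CMP, with a median over the 37 of 1.89, against -0.0074 over all genes. None passed in edgeR's test, where no gene at all passed. At an unadjusted p under 0.05 were 24 of the 37 and 6.92% of all genes. DESeq2 called 22, all higher, and 3.03% of its genes.

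Of the megakaryocyte targets, 14 of 22 tested were positive and 8 negative in CMP. At an unadjusted p under 0.05 were 8, all higher, and DESeq2 called 7, all higher. In edgeR's test only Rab38, which encodes a small GTPase of lysosome-related organelles, passed the threshold, and it rose. It averaged 167.5 ± 20.9 CPM in enhancer-null CMP and 41.0 ± 1.48 CPM in wild-type CMP, without overlap (log2 fold change 2.03, SE 0.22, adjusted p = 0.0123). Its call was lost without wild-type replicate 1 (adjusted p = 0.0896), 6 (0.111) or 8 (0.0983). In LSK 13 of the 25 tested were positive and 12 negative, with 1 past the threshold in each direction, Itga2b being the higher one. Itga2b, the integrin CD41, had 119.5, 128 and 117 CPM in enhancer-null LSK, against 32.9, 30.1 and 31.9 CPM in wild-type LSK (1.97, SE 0.23, adjusted p = 0.0434). The groups did not overlap. The call held without wild-type replicate 6 (adjusted p = 0.0463) and was lost without any other library of the comparison, with adjusted p from 0.154 to 0.275. In CMP Itga2b averaged 151 ± 71.7 CPM in enhancer-null and 25.9 ± 12.6 CPM in wild-type cells (2.54, SE 0.49, adjusted p = 0.0815).

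Genes of the myeloid factors that oppose GATA factors, and of their receptors, included 9 of 15 with a negative log2 fold change in CMP and 6 with a positive one. At an unadjusted p under 0.05 were 4 higher and 6 lower, and DESeq2 called 3 higher and 5 lower. In edgeR's test only Irf8, a factor of monocyte and dendritic cell development, passed the threshold, and it fell. It averaged 78 ± 6.69 CPM in enhancer-null CMP and 498 ± 101 CPM in wild-type CMP (-2.68, SE 0.21, adjusted p = 0.00424), and this call held in all 6 fits that left out a library. In LSK none of 14 passed in edgeR's test (5 with an unadjusted p under 0.05, and 2 in DESeq2). Of the mast cell, basophil and eosinophil markers, 11 of 13 tested in LSK were positive, and Cpa3 averaged 476 ± 155 CPM in enhancer-null LSK and 8.03 ± 4.55 CPM in wild-type LSK (5.94, SE 0.50, adjusted p = 0.0128). Its call was lost without enhancer-null LSK replicate 1 (adjusted p = 0.136) or 2 (0.107) and without wild-type LSK replicate 1 (0.0739) or 8 (0.118). In CMP Cpa3 averaged 1117 ± 222 CPM in enhancer-null and 41.7 ± 19.5 CPM in wild-type cells (4.74, SE 0.37, adjusted p = 0.00424), and Gzmb averaged 468 ± 190 CPM in enhancer-null and 0.801 ± 1.01 CPM in wild-type cells (9.0, SE 0.95, adjusted p = 0.0121). Without wild-type CMP replicate 8 the adjusted p was 0.0526 for Cpa3 and 0.0749 for Gzmb, and without wild-type CMP replicate 6 it was 0.0677 for Gzmb.

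**Figure D5:**
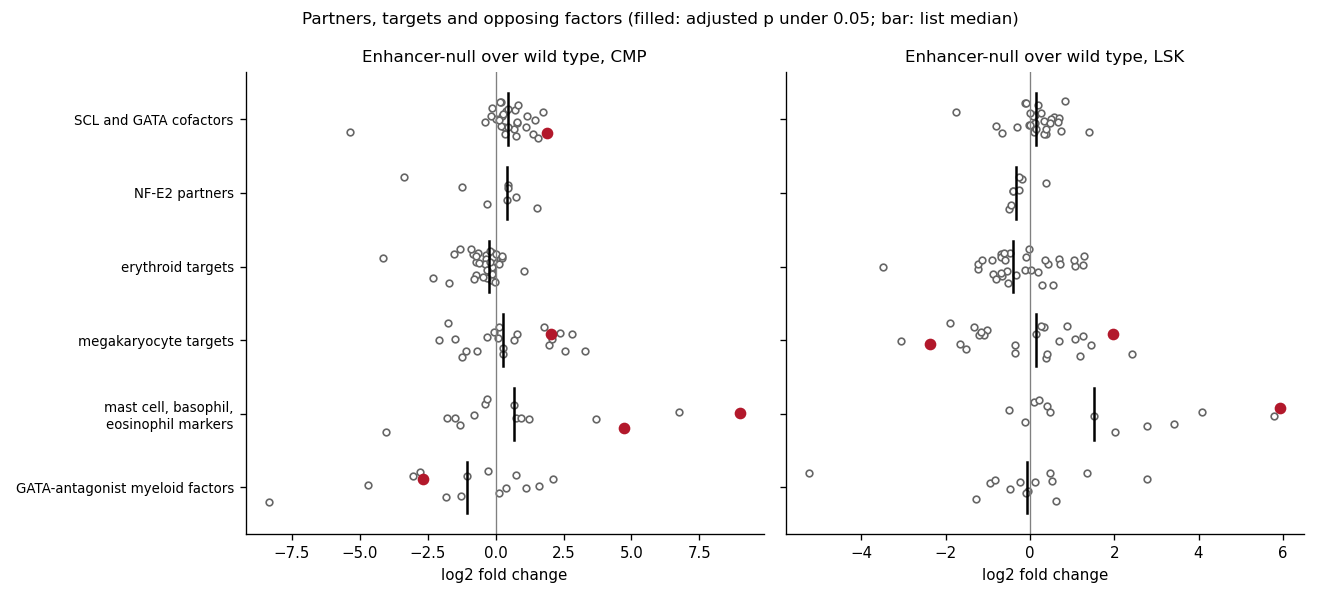
Log2 fold change, enhancer-null over wild type, of every tested gene of the 6 partner and target lists in CMP (left) and LSK (right). Filled points are past an adjusted p of 0.05 and black bars are list medians, which lie at 0.44 for the cofactors and -0.24 for the erythroid targets in CMP.

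For Gata1, Gata2, Klf1, Gfi1b, Lmo2 and Nfe2, the genes with the most similar profile over the 12 libraries were looked up among 10174 genes, by the root mean square difference of log2 levels (CPM with a pseudocount of 1) after centring each gene on its mean, so that 0 means the same profile. Nearest to Gata2 was Slc18a2 (0.29), a vesicular monoamine transporter used by mast cells and platelets, followed by Serpinb9 (0.41) and Zfp36l1 (0.50). Slc18a2 averaged 229 CPM in enhancer-null CMP, 32.5 CPM in wild-type CMP, 97.4 CPM in enhancer-null LSK and 152 CPM in wild-type LSK. Nearest to Gata1 were Ccne1 (0.54), Ctse (0.64) and Car1 (0.72), and the same 3 genes were nearest to Klf1, with Car1 at 0.38, Ccne1 at 0.52 and Ctse at 0.55. Nearest to Lmo2 was Ifitm3 (0.29), with 52.3 CPM in enhancer-null CMP, 123 CPM in wild-type CMP, 138 CPM in enhancer-null LSK and 342 CPM in wild-type LSK. Nfe2 was nearest to B2m (0.21), and Gfi1b to Slc14a1 (0.54), a urea transporter of red cells.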

How the data were processed

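The authors deposited raw read counts by gene symbol, with a separate file for each library. The submitters' processing notes name TopHat2 2.0.4, TopHat, Bowtie, HTSeq and the build mm10. Per the labels' protocols, total RNA was amplified from very small amounts and sequenced as paired reads of 75 bp. The sources used here do not give the annotation, counting mode or strand setting. Rows naming no gene held 37.2% to 46.9% of a library's counts and were left out. Wild-type CMP replicate 6 lists other symbols than the other 11 libraries, so it may have been counted with another annotation. Counts were joined on 22779 identical symbols and 598 older names linked by the RefSeq table (assembly GRCm38.p6), leaving 0.0805% to 0.317% of a library's gene counts unjoined.

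No 2 libraries agreed within sampling noise (chi-square per degree of freedom 44.3 to 192). The quasi-likelihood test of edgeR 4.0.16 (R 4.3.3) was run with TMM scaling, robust dispersion and the filterByExpr filter (minimum count 10), with p-values adjusted over all genes by Benjamini-Hochberg, on the groups compared, and on all 12 libraries for the difference between fractions. The SE is the log2 fold change divided by the square root of F. Biological coefficients of variation were 0.719 to 0.823. The floor of 3 counts is 0.061 to 0.486 CPM. Amplified reads carry no molecular identifiers, so copies of the same molecule are counted as separate reads. Intervals cover counting error only, take reads as independent and may be too narrow even for that error. The code was run on simulated counts with less spread than these libraries and larger changes than many given here. That run does not measure error rates at the spread of these data.

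The members and gene lists were chosen with earlier results of these data known. Named genes are the members, Cebpa, for each of 6 lists and 5 comparisons up to 4 genes past the threshold (otherwise the one with the smallest p), and the 3 genes most like each of 6 members (mean of at least 5 CPM). Pf4, Vwf, Ppbp, Gp1ba, Gp9, Srgn, Hdc, Mcpt8, Tcf7, Lat, Cd3e, Cd3g, the markers at 0, Ly6a, Fcgr3, Flt3 and Cd34 were named after their values were seen. Some genes taken by the rule are not described, and 1 is not reported here. Alternatives were RLE scaling, no expression filter, DESeq2 1.42.0, 1 fit over all libraries, sex as a covariate, identical symbols only, a replicate block and leaving out each library; other scalings were tried for levels. Leaving out libraries for the paralog shares was added after seeing the data. Sequences are from RefSeq, and positions and exon lengths from GENCODE M21.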

Additional observations from a re-analysis of the deposited data

Results flagged for a closer look

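The genotype effect differed between CMP and LSK for 7 named genes, by the test of the difference in 1 edgeR fit over the 12 libraries. Of all 12683 genes tested, 37 passed (0.292%). Rab38, Irf8, Csf1r and Egr1 are list genes that the naming rule took for passing this same test, among others. Their passing it is therefore no separate result, and the count of 7 is not a share of genes fixed beforehand. The values are log2 fold changes, enhancer-null over wild type, in CMP minus those in LSK. With a block for each replicate number, the members among these genes, Gata2 and Nfe2, did not pass the threshold. With sex as a covariate Nfe2 did not pass either. Gata2 differed by 3.22 (SE 0.51, adjusted p = 0.02), and every enhancer-null library was above every wild-type one in CMP and below every one in LSK. Slc18a2, the gene with the profile most like Gata2, differed by 3.46 (SE 0.64, adjusted p = 0.0478), but was found by that likeness in the same libraries. Nfe2 differed by 1.52 (SE 0.26, adjusted p = 0.0317) and Rab38, the megakaryocyte target, by 1.80 (SE 0.30, adjusted p = 0.0247), both higher in every enhancer-null CMP library and overlapping in LSK. Egr1, an early response factor, differed by 2.99 (SE 0.55, adjusted p = 0.0458). Irf8 differed by -4.00 (SE 0.55, adjusted p = 0.00882) and Csf1r, the receptor of macrophage colony-stimulating factor, by -5.77 (SE 0.89, adjusted p = 0.0184). Csf1r averaged 17 ± 10.5 CPM in enhancer-null CMP and 139 ± 39.5 CPM in wild-type CMP, and 47.5 ± 29.7 CPM in enhancer-null LSK and 7.05 ± 2.74 CPM in wild-type LSK. With 1 library left out, the difference for Irf8 stayed past the threshold in all 12 fits, and that for Csf1r was lost without wild-type CMP replicate 6 (adjusted p = 0.0729) or 8 (0.0507) or wild-type LSK replicate 8 (0.0638). That for Egr1 held only without enhancer-null CMP replicate 2 (0.0187) or wild-type CMP replicate 1 (0.0435) and otherwise had an adjusted p of 0.0506 to 0.164. That for Rab38 held only without enhancer-null CMP replicate 2 (0.0285) or 7 (0.0372) or wild-type LSK replicate 6 (0.0242), with 0.0514 to 0.122 in the other fits.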

How the results depend on the processing

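The number of members past the threshold in CMP (1) became 4 with no expression filter and 5 with DESeq2. It became 3 in 1 fit over all 12 libraries and 0 with sex as a covariate. That in LSK (1) became 2 with DESeq2 and 0 with sex, and that of the difference (2) became 1 with sex. For the wild-type cell type comparison (5) it became 4 with no filter, 7 with DESeq2, 6 in the fit over all libraries and 3 with sex. For the enhancer-null one (0) it became 1 with no filter, 4 with DESeq2 and 1 in the fit over all libraries. Over all genes, the 68 in CMP became 268 with no filter, 904 with DESeq2, 232 in the fit over all libraries and 31 with sex. The 12 in LSK became 39, 390, 26 and 3 under the same settings in that order. The 37 for the difference became 68 with no filter, 243 with DESeq2 and 29 with sex. The 507 in wild-type cells became 717 with no filter, 2110 with DESeq2, 481 in the fit over all libraries and 283 with sex. The 0 in enhancer-null cells became 9 with no filter, 364 with DESeq2 and 37 in the fit over all libraries. The cause was not tested.

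Leaving out 1 library gave 0 to 1 members in CMP, 0 to 1 in LSK, 0 to 2 for the difference, 1 to 6 in wild-type cells (1 without wild-type CMP replicate 6 or 8, and 6 without wild-type LSK replicate 6) and 0 in enhancer-null cells. Over all genes it gave 7 (without wild-type CMP replicate 6 or 8) to 91 (without enhancer-null CMP replicate 2), 1 to 21, 12 to 125, 54 to 877 and 0. These fits leave 1 group with 2 libraries.

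Estimates that changed sign lay between -0.27 (Klf1 in CMP and Ldb1 in enhancer-null cells) and 0.36 (Lyl1 in enhancer-null cells) in the main fit. Some moved widely when a library was left out. Zfpm1 in LSK was -0.01 in the fit over all libraries, -0.04 with sex and -0.19 to 0.16 with a library left out. Zfpm1 in wild-type cells was -0.02 with RLE, -0.03 with no filter, with DESeq2 and over all libraries, -0.0014 with sex, -0.0044 with the replicate block and -0.18 to 0.13 with a library left out. With a library left out, Gata1 in CMP was -0.63 to 0.37, Klf1 in CMP -0.89 to 0.04, the difference -0.10 to 0.52 for Tal1 and -0.23 to 0.23 for Ldb1, Ldb1 in wild-type cells -0.36 to 0.02, and in enhancer-null cells Lyl1 -0.07 to 0.69 and Ldb1 -0.40 to 0.01. Of 40 group means, 1 moved by its SD or more with CPM of the raw total (Lmo2 in wild-type LSK, 1092 CPM) and 0 with RLE. Leaving out a library, an alternative chosen after seeing the data, moved none of 24 means of the paralog shares by its SD. RLE scaling and joining identical symbols only left the number of members past the threshold as it was in all 5 comparisons.

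The replicate numbers are shared by CMP and LSK of a genotype, but the labels do not say that they mark an animal. Sex by Xist and Y-linked genes was the same in both fractions for every number of a genotype. Whether same-numbered libraries came from the same animal is not known. Over 9514 genes, same-numbered CMP and LSK libraries deviated from their group means with correlations of -0.0402 to 0.0733, and the own number was highest for 4 of 6. With the replicate block, members past the threshold were 0 for the difference and 2 in wild-type cells (Gfi1b and Lmo2), and genes 7 and 132, with 0 of both in enhancer-null cells. No paired analysis was possible for the genotype comparisons because the genotypes share 1 number.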

Other observations

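Other genes of the sorted fractions also set the genotypes apart in CMP. Flt3, a receptor of early lymphoid and myeloid progenitors, averaged 69.6 CPM (24.3 to 97 CPM) in enhancer-null CMP, against 428 CPM (343 to 598 CPM) in wild-type CMP. Cd34, one of the genes by which CMP are usually gated, averaged 388 CPM in enhancer-null CMP, against 806 CPM in wild-type CMP, and Kit averaged 586.5 CPM in enhancer-null CMP, against 345 CPM in wild-type CMP. Bach2, a repressor that shares DNA sites and small MAF partners with NF-E2, averaged 1.34 ± 2.13 CPM in enhancer-null CMP and 14.1 ± 4.49 CPM in wild-type CMP, without overlap and not past the threshold (log2 fold change -3.37, SE 1.82, adjusted p = 0.535, edgeR). Enhancer-null CMP replicate 2 held 77 of its counts in that group, against 2 and 0 in the other libraries, and the estimate was -7.01 without that replicate. Tcf7, a T cell and early progenitor factor, averaged 169 CPM in enhancer-null LSK, against 0.178 CPM in wild-type LSK.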
